A study of Canis lupus familiaris with 12 samples.

Results

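Transcripts of the Mx antiviral genes and of Toll-like receptors were followed in a dog melanoma cell line exposed to 3 anti-inflammatory drugs. The members were every probe whose RefSeq accession belongs to MX1, MX2, TLR2, TLR3, TLR4, TLR7 or TLR9. Of these 7 genes, 5 were found, out of 832 genes that the array's accessions allowed to be named. MX1, TLR2 and TLR4 each had 2 probes, and TLR7 and TLR9 had 1 probe each. MX2 and TLR3 were not matched to a probe and were not analysed here. MX1 and MX2 stand next to each other on 1 chromosome in RefSeq's gene table for UU_Cfam_GSD_1.0, a dog assembly.

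Mx proteins are large GTPases of the dynamin superfamily that are made in response to type I and type III interferons and block the replication of several viruses inside the cell. Toll-like receptors are membrane receptors of innate immunity that recognise microbial molecules. TLR2 and TLR4 sit at the cell surface, where TLR2 responds to bacterial lipoproteins and TLR4 to lipopolysaccharide. TLR3, TLR7 and TLR9 sit in endosomes, where TLR3 binds double-stranded RNA, TLR7 binds single-stranded RNA and TLR9 binds DNA rich in unmethylated CpG. Their signals run through adaptor proteins to the NF-κB and interferon regulatory factors, which turn on cytokine and interferon genes. These roles are known mainly from human and mouse cells.

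The cells were Mi/CMM1, an established dog oral melanoma line, and the series asked how 3 nonsteroidal anti-inflammatory drugs alter their gene expression. Each of 4 groups had 3 arrays: cells given piroxicam, carprofen or robenacoxib, and control cells, whose label states that they had no treatment and names no vehicle. All 3 drugs inhibit cyclooxygenases. Each was used at its half-maximal inhibitory concentration, and what that concentration inhibits is not stated here. The source names and series design put piroxicam at 116 µM, carprofen at 779 µM, robenacoxib at 156 µM and the exposure at 6 h, whereas the treatment protocol exchanges the first pair of doses, with piroxicam at 779 µM and carprofen at 116 µM, and states 24 h. In both versions the doses were unequal, so a difference between drugs compares the treatments as they were given. All groups were 1 cell line without an added interferon or receptor ligand in the labels. The series calls the replicates biological without saying how the cultures were separated, so p-values measure the spread between these samples.

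The values below are background-subtracted fluorescence signals in arbitrary units, and their log2 relative to the 75th percentile of the same array, called the relative level. Between 66.2% (piroxicam 3) and 80.0% (carprofen 2) of spots were well above background, and no member spot was flagged as an outlier or saturated (0 saturated spots on the 12 arrays). Testing was limited to the 31996 of 43603 probes that stood well above background throughout a group, that is, on its 3 arrays. Differences are given with the standard error (SE) or 95% confidence interval of limma, and p-values are limma's, adjusted over all 31996 probes by the Benjamini-Hochberg method; a difference is called when this value is below 0.05. The arrays lay on 3 slides. The controls shared the first slide with carprofen 1, the second slide carried carprofen 2 and 3 with piroxicam 1 and 2, and the third carried piroxicam 3 with the robenacoxib arrays. Piroxicam and robenacoxib thus had no slide in common with control cells, and a fit with a slide term links piroxicam to control through carprofen, and robenacoxib to control through piroxicam and then carprofen. The choice of scaling also shifts every difference from control: when arrays were scaled to the RNA spiked in during labelling, the median difference over all tested probes was 0.223 for piroxicam, 0.353 for carprofen and 0.28 for robenacoxib, against -0.023, -0.023 and -0.03 with the 75th percentile. "Rose" and "fell" below are relative to the 75th percentile of the array unless the spiked-in RNA is named.

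Of the 5 genes, MX1, TLR7 and TLR9 were measured above background on all 12 arrays, and these 3 were tested. TLR2 was well above background on 5 of 12 arrays and TLR4 on 0 of 12. In the overall test for any difference among the 4 groups, 2 of the 3 tested genes were called, MX1 and TLR7, where 48% of all tested probes were called. Against control, 2 genes were called with piroxicam (28% of all tested probes), 1 with carprofen (32.8%) and 2 with robenacoxib (22.2%). Changes of this kind were thus common on these arrays, and the members' counts are too small to set against those shares. With a slide term, 1629, 5232 and 451 of the 31996 tested probes were called against control with piroxicam, carprofen and robenacoxib. Scaled to the spiked-in RNA, 12792, 23179 and 18599 were called higher and 424, 42 and 110 lower. Any count below under either setting is to be read beside these totals.

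**Figure D1:**
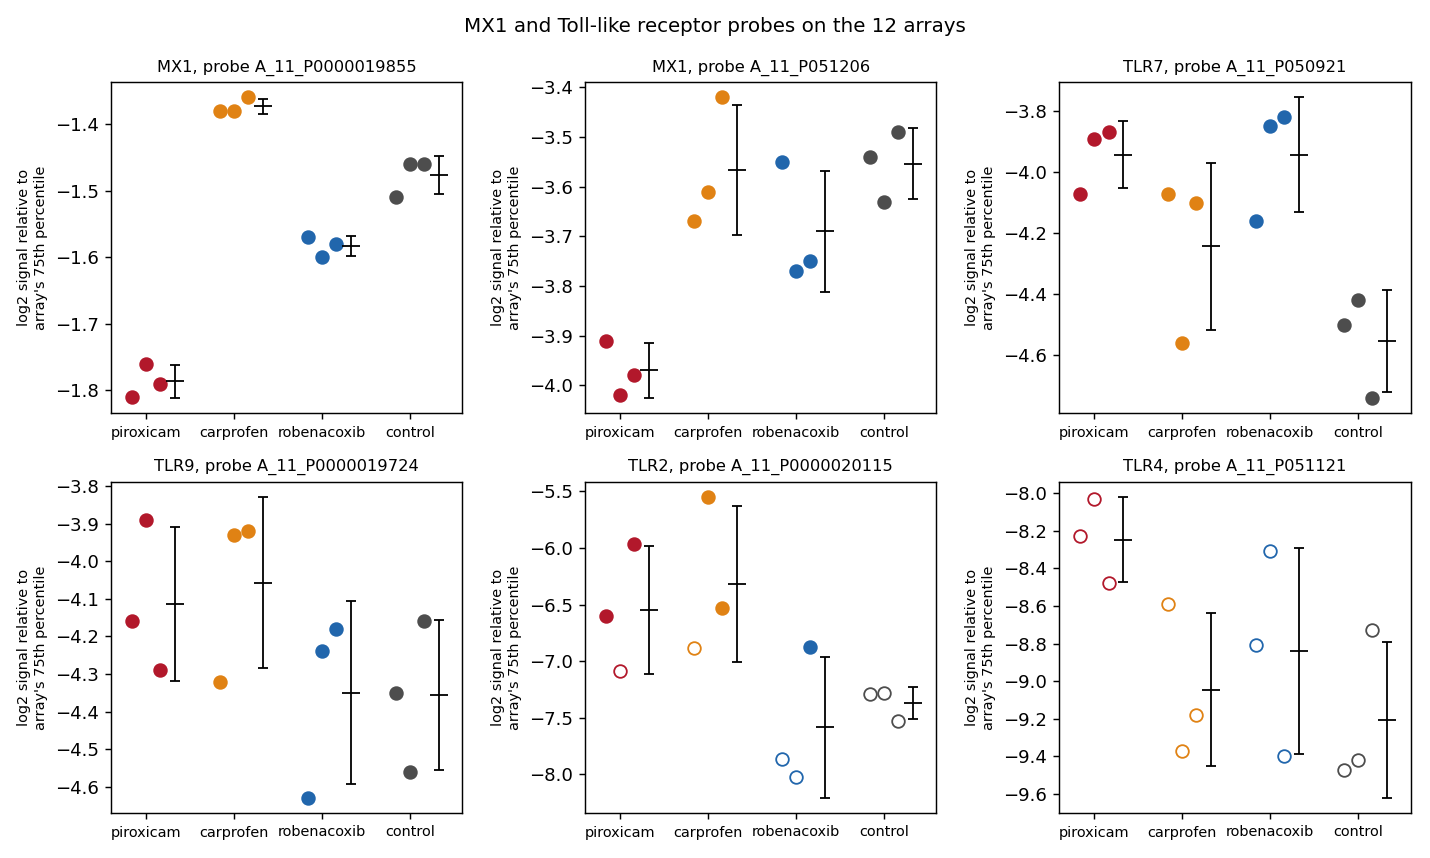
Relative level (log2 signal minus the array's 75th percentile, y axis; the scale differs between panels) of 6 probes in the 4 groups. Each point is 1 array, filled where the probe was well above background and open where it was not, and the bar beside each group gives its mean and SD (n = 3). On the brighter MX1 probe the 4 groups do not overlap, with piroxicam lowest and carprofen highest, whereas every TLR4 point is open.

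MX1, the interferon-inducible antiviral GTPase, was lowest in cells given piroxicam and highest, or level with control, in cells given carprofen. On its brighter probe the signal was 658, 673 and 677 on the piroxicam arrays, 864, 957 and 878 on the carprofen arrays, 729, 748 and 747 on the robenacoxib arrays, and 748, 766 and 756 on the control arrays. The relative level was -1.79 ± 0.02 with piroxicam, -1.37 ± 0.01 with carprofen, -1.59 ± 0.01 with robenacoxib and -1.48 ± 0.03 in control cells (mean ± SD, n = 3 each). No 2 of the groups overlapped on this scale, and the order from low to high was piroxicam, robenacoxib, control and carprofen, with every pair of neighbours in that order called apart.

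The second MX1 probe was dimmer. Its signal was 153, 140 and 148 with piroxicam, 176, 204 and 211 with carprofen, 186, 167 and 167 with robenacoxib, and 183, 170 and 185 in control cells. The piroxicam arrays again lay below all others, while the other 3 groups overlapped each other. Its relative level was -3.97 ± 0.06 with piroxicam, -3.57 ± 0.13 with carprofen, -3.69 ± 0.12 with robenacoxib and -3.55 ± 0.07 in control cells (SD, n = 3 each). The 2 probes correlated at r = 0.857 over the 12 arrays but only at 0.111 within groups, so that what they shared was the difference between groups.

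With piroxicam, MX1 fell on both probes against control. The brighter probe fell by 0.31 on the log2 scale (SE 0.02, 95% interval -0.37 to -0.25, adjusted p = 4.81e-05), which is 1.24-fold lower, and the dimmer probe fell by 0.42 (SE 0.08, 95% interval -0.60 to -0.24, adjusted p = 0.00414), which is 1.34-fold lower. Among all tested probes 16.1% were called lower with piroxicam, and 26.5% had all piroxicam arrays below all control arrays. With a slide term the brighter probe kept its call at -0.31 (SE 0.05, adjusted p = 0.021), and the dimmer one lost it at -0.57 (SE 0.15, adjusted p = 0.0729). Scaled to the spiked-in RNA, neither probe was called: the differences were -0.06 (adjusted p = 0.48) and -0.17 (adjusted p = 0.125).

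With carprofen the brighter MX1 probe was higher than in control by 0.10 (SE 0.02, adjusted p = 0.0122), a 1.07-fold difference, and the dimmer probe differed by -0.01 (95% interval -0.19 to 0.16, adjusted p = 0.923). The carprofen arrays all lay above the controls on the brighter probe, as for 19.5% of tested probes, and overlapped them on the dimmer one. Within the first slide, where carprofen 1 lay beside the 3 controls, the brighter probe differed by the same 0.10 but was not called (adjusted p = 0.258). Scaled to the spiked-in RNA, both probes were called higher, by 0.48 (adjusted p = 0.000461) and 0.36 (adjusted p = 0.00463).

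With robenacoxib the brighter MX1 probe was lower than in control by 0.11 on the log2 scale (SE 0.02, 95% interval -0.17 to -0.05, adjusted p = 0.0124), a 1.08-fold difference. The dimmer probe, at -0.13 (95% interval -0.31 to 0.04, adjusted p = 0.268), was not called. On the brighter probe all robenacoxib arrays lay below all controls, as for 25% of tested probes. This call on the brighter probe ended with a slide term (-0.11, adjusted p = 0.467) and without control 2 (-0.10, adjusted p = 0.0525). Scaling to the spiked-in RNA turned its direction, with a difference of 0.20 (adjusted p = 0.0358).

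Between drugs, MX1 differed most for carprofen against piroxicam. It was higher with carprofen than with piroxicam by 0.41 on the brighter probe (SE 0.02, 95% interval 0.36 to 0.47, adjusted p = 3.23e-06) and by 0.41 on the dimmer probe (SE 0.08, adjusted p = 0.00284), which is 1.33-fold on each. In that comparison 1 of the 3 member genes was called, beside 37.5% of all tested probes (18.6% higher), and all carprofen arrays lay above all piroxicam arrays on both probes, as for 23.4% of tested probes. These groups met on the second slide. There the signals of the brighter probe were 957 and 878 with carprofen, against 658 and 673 with piroxicam, and the difference was 0.41 (adjusted p = 0.0283). The dimmer probe differed by 0.46 within that slide (adjusted p = 0.0604). Scaled to the spiked-in RNA, carprofen exceeded piroxicam by 0.54 on each probe (adjusted p = 0.000535 and 0.00167). On the brighter probe the difference was called under all 27 alternative settings, at 0.35 to 0.54, and on the dimmer probe under 26 of 27, at 0.26 to 0.56, the within-slide fit being the exception.

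Robenacoxib lay between the other drugs. MX1 was higher with robenacoxib than with piroxicam by 0.20 on the brighter probe (SE 0.02, adjusted p = 0.000393) and by 0.29 on the dimmer probe (SE 0.08, adjusted p = 0.0239). Again 1 of the 3 member genes was called, beside 27.1% of all tested probes (13.9% higher), and on both probes the robenacoxib arrays lay above the piroxicam arrays, as for 21.3% of tested probes. On the third slide the brighter probe read 729, 748 and 747 with robenacoxib, against 677 on the only piroxicam array there, and the difference of 0.21 was not called within that slide (adjusted p = 0.125). A fit with a slide term, whose spread comes from the whole set of arrays, gave 0.21 (adjusted p = 0.0113). The dimmer probe's call depended on single arrays: it ended without piroxicam 2 (0.26, adjusted p = 0.0736), without piroxicam 3 (0.28, adjusted p = 0.0636) or without robenacoxib 1 (0.22, adjusted p = 0.075). It also ended with a slide term (0.29, adjusted p = 0.114) and within the third slide (0.29, adjusted p = 0.255).

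Against carprofen, MX1 was lower with robenacoxib by 0.21 on the log2 scale on the brighter probe (SE 0.02, 95% interval -0.27 to -0.16, adjusted p = 0.0018). The dimmer probe, at -0.12 (95% interval -0.30 to 0.06, adjusted p = 0.401), was not called. Only 8.15% of all tested probes were called in this comparison, in which 1 of the 3 member genes was, and 3.74% were called lower. The robenacoxib arrays lay below the carprofen arrays on the brighter MX1 probe, as they did for 12.5% of tested probes. These 2 groups shared no slide, and the call ended with a slide term (-0.20, adjusted p = 0.165) and with scaling to the spiked-in RNA (-0.28, adjusted p = 0.171).

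**Figure D2:**
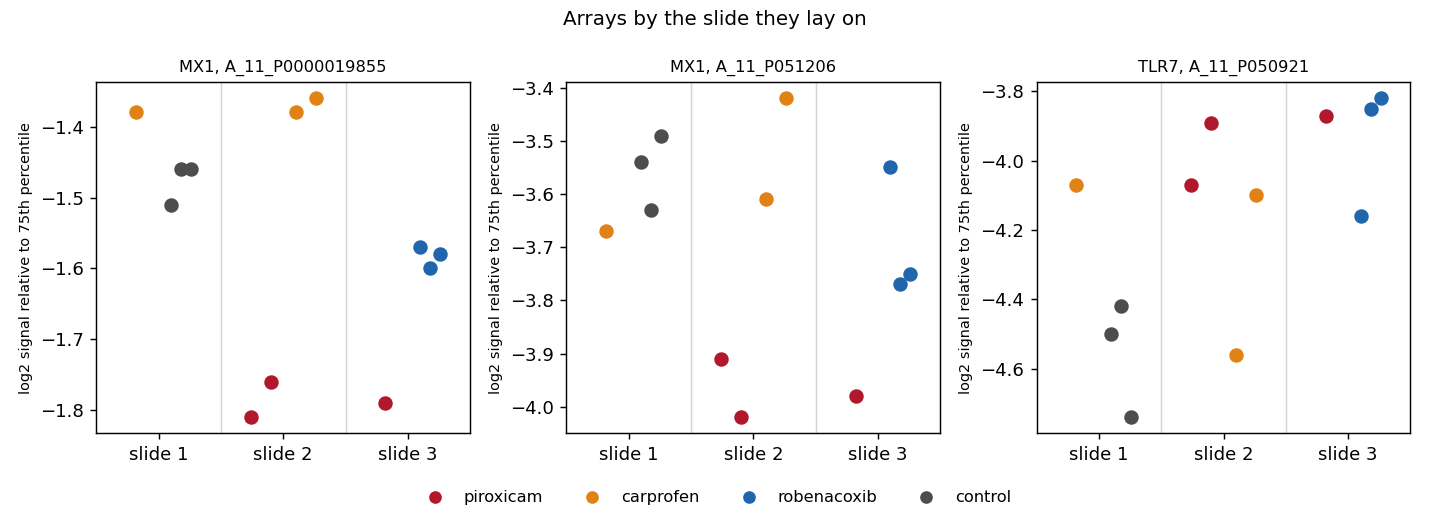
Relative level of both MX1 probes and of TLR7 (y axis, log2 signal minus the array's 75th percentile) with the 12 arrays arranged by slide (x axis) and coloured by group. Each point is 1 array. On slide 2 both carprofen arrays lie above both piroxicam arrays on each MX1 probe, and on slide 3 the piroxicam array lies below the 3 robenacoxib arrays on those probes.

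TLR7, the endosomal receptor for single-stranded RNA, was higher with piroxicam and with robenacoxib than in control cells. Its signal was 137, 154 and 161 with piroxicam, 134, 106 and 131 with carprofen, 121, 157 and 158 with robenacoxib, and 94.6, 98.2 and 77.5 in control cells. All 9 drug-treated arrays had a higher unscaled signal than any control array. Their 75th percentiles also all exceeded those of the controls, at 11.08 to 11.28 against 11.02 to 11.06 in log2 units. After scaling, carprofen 2 fell below 2 of the control arrays, so that carprofen and control overlapped, and piroxicam and robenacoxib did not overlap control. The relative level was -3.94 ± 0.11 with piroxicam, -4.24 ± 0.27 with carprofen, -3.94 ± 0.19 with robenacoxib and -4.55 ± 0.17 in control cells (SD, n = 3 each). In order from low to high, control and carprofen were not called apart, nor was carprofen from either of the other drugs.

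TLR7 rose 1.53-fold with piroxicam (log2 difference 0.61, SE 0.15, 95% interval 0.28 to 0.94, adjusted p = 0.0136) and 1.53-fold with robenacoxib (0.61, SE 0.15, 95% interval 0.28 to 0.94, adjusted p = 0.0174). With carprofen the difference was 0.31 (95% interval -0.02 to 0.64, adjusted p = 0.14). Among all tested probes, 11.9% were called higher with piroxicam, 13.3% with carprofen and 9.57% with robenacoxib; 21.2% had all piroxicam arrays above all controls and 16.6% all robenacoxib arrays. The calls rested partly on control 3, the dimmest of the control arrays for TLR7: without it the differences were 0.52 with piroxicam (adjusted p = 0.0518) and 0.51 with robenacoxib (adjusted p = 0.0622). The robenacoxib call also ended without robenacoxib 2 (0.56, adjusted p = 0.0586) or robenacoxib 3 (0.55, adjusted p = 0.0599), and leaving out carprofen 2, the dimmest carprofen array, brought carprofen to 0.47 (adjusted p = 0.0272).

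The direction for TLR7 held under every alternative tried, while the call did not. With a slide term the difference from control was 0.83 with piroxicam (95% interval 0.17 to 1.5, adjusted p = 0.14), 0.48 with carprofen (-0.02 to 0.99, adjusted p = 0.165) and 0.76 with robenacoxib (-0.07 to 1.59, adjusted p = 0.358). On the first slide, the signal was 134 on carprofen 1, against 94.6, 98.2 and 77.5 on the controls. The difference in relative level within that slide was 0.48, and it rests on that 1 carprofen array. Scaled to the spiked-in RNA, TLR7 was called higher with each drug, by 0.86 with piroxicam (adjusted p = 0.00579), 0.69 with carprofen (adjusted p = 0.00646) and 0.92 with robenacoxib (adjusted p = 0.00293).

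Between drugs TLR7 was not called apart. Carprofen minus piroxicam was -0.30 (95% interval -0.63 to 0.03, adjusted p = 0.145), robenacoxib minus piroxicam was 0.00 (-0.34 to 0.33, adjusted p = 0.99) and robenacoxib minus carprofen was 0.30 (-0.03 to 0.63, adjusted p = 0.263). These intervals leave room for differences of about the size seen against control between carprofen and the other drugs. Since piroxicam, carprofen and robenacoxib were each set against the same 3 control arrays, their differences from control are not separate observations.

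TLR9, the endosomal receptor for CpG-rich DNA, was not called in any comparison. Its signal was 129, 154 and 120 with piroxicam, 112, 164 and 149 with carprofen, 87.6, 120 and 123 with robenacoxib, and 105, 89.0 and 116 in control cells. Every group overlapped every other on the relative scale. The relative level was -4.11 ± 0.21 with piroxicam, -4.06 ± 0.23 with carprofen, -4.35 ± 0.24 with robenacoxib and -4.36 ± 0.20 in control cells (SD, n = 3 each). Against control the difference was 0.25 with piroxicam (95% interval -0.13 to 0.62, adjusted p = 0.306), 0.30 with carprofen (-0.08 to 0.68, adjusted p = 0.207) and 0.01 with robenacoxib (-0.37 to 0.38, adjusted p = 0.983). The interval for carprofen thus includes a difference as large as that of TLR7 with piroxicam. Scaled to the spiked-in RNA, TLR9 was called higher with piroxicam by 0.49 (adjusted p = 0.0307) and with carprofen by 0.68 (adjusted p = 0.00401), but not with robenacoxib (0.32, adjusted p = 0.102).

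**Figure D3:**
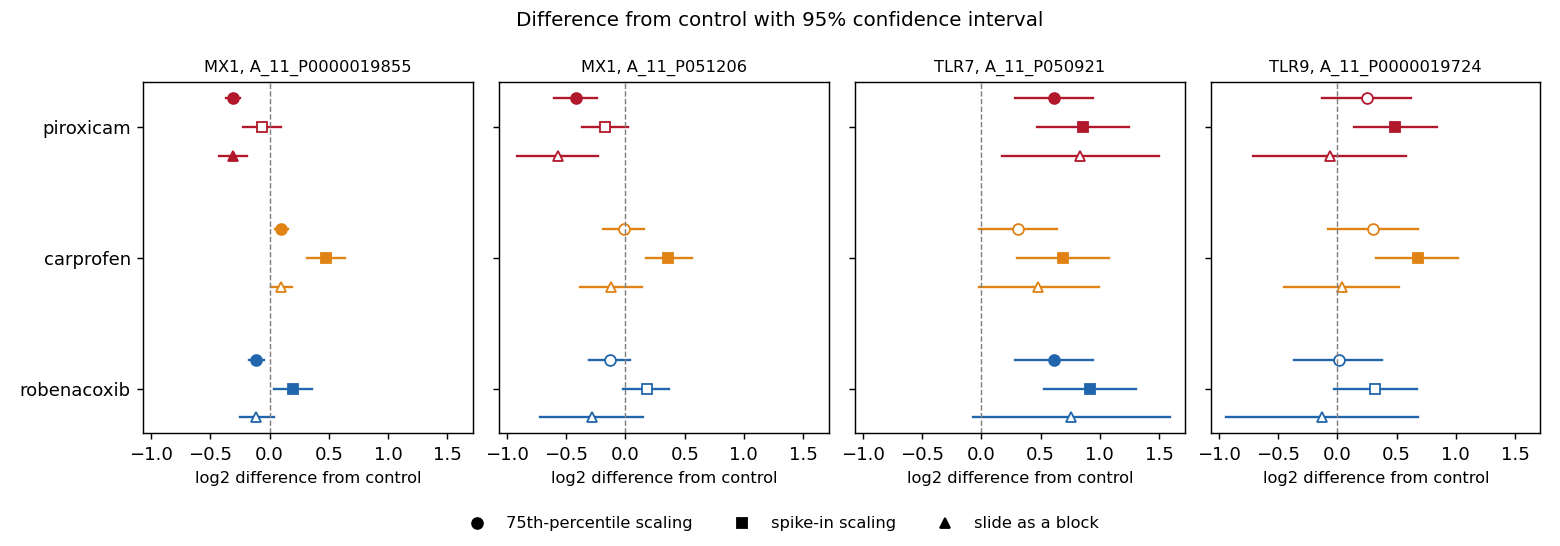
Difference from control on the log2 scale (x axis) with its 95% confidence interval for the 4 tested probes, in rows for piroxicam, carprofen and robenacoxib. Circles use the 75th-percentile scaling, squares the spiked-in RNA and triangles add the slide as a block, and filled symbols have an adjusted p below 0.05. The squares lie to the right of the circles in every row, and MX1 with robenacoxib lies left of zero for circles and right of it for squares.

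TLR2, the surface receptor for lipoproteins, was at the edge of detection. On its brighter probe the signal was 23.8, 16.7 and 37.8 with piroxicam, 19.1, 53.1 and 24.4 with carprofen, 9.33, 8.73 and 19.1 with robenacoxib, and 13.7, 13.5 and 11.2 in control cells. It stood well above background on 2 of 3 arrays with piroxicam, 2 of 3 carprofen arrays, 1 of 3 robenacoxib arrays and 0 of 3 control arrays. All piroxicam and carprofen signals exceeded all control signals. On the relative scale 21.2% of tested probes had all piroxicam arrays above all controls, and 19.5% all carprofen arrays. In the authors' log2 values the groups overlapped, with 5.41 on control 2 against 4.99 on piroxicam 2 and 5.35 on carprofen 1. The probe did not pass the filter, since in no group was it well above background on all 3 arrays, so its differences rest partly on signals near background. With the filter removed, the differences were 0.82 with piroxicam (SE 0.42, adjusted p = 0.228), 1.05 with carprofen (SE 0.42, adjusted p = 0.126) and -0.22 with robenacoxib (SE 0.42, adjusted p = 0.82), and none was called. The other TLR2 probe was above background on 0 of 12 arrays, with signals of 2.79 to 9.79.

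TLR4, the lipopolysaccharide receptor, was not well above background on any array with either probe. On the probe printed in several copies its signal was 7.68, 8.69 and 6.54 with piroxicam, 5.84, 3.78 and 3.90 with carprofen, 4.84, 7.14 and 3.33 with robenacoxib, and 3.02, 3.06 and 4.90 in control cells. The lowest signal that counted as well above background on an array ranged from 13.1 to 28.5, so these values have no dependable order. With the filter removed neither TLR4 probe was called against control; the largest difference was 0.96 with piroxicam (SE 0.32, adjusted p = 0.0751).

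Of 40 genes listed for the Toll-like receptor pathway, 2 were named and tested: NFKB1, a subunit of NF-κB, and HSP90B1, the chaperone that folds Toll-like receptors. None was called with piroxicam or robenacoxib (0 of 2 each), where 28% and 22.2% of all tested probes were. Scaled to the spiked-in RNA, 1, 2 and 1 of the 2 were called higher with piroxicam, carprofen and robenacoxib, and 0 were called with a slide term. HSP90B1 was called lower with carprofen, as were 19.5% of all tested probes, by 0.13 on the log2 scale (SE 0.03, adjusted p = 0.0089, both of its probes). That call ended with a slide term (-0.07, adjusted p = 0.128), within the first slide (-0.07, adjusted p = 0.269) and with quantile normalization (-0.01, adjusted p = 0.878), and the difference turned to 0.24 when scaled to the spiked-in RNA. The median over the 2 genes was -0.07 for piroxicam, -0.12 for carprofen and -0.05 for robenacoxib. A second NFKB1 probe was called lower with piroxicam, where the brighter one, at -0.11 (adjusted p = 0.137), was not.

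Of 40 genes of the interferon response, which share with MX1 their induction by interferon, 6 were named and tested. Each drug had 1 of 6 called lower and 0 called higher, where 16.1%, 19.5% and 12.6% of all tested probes were lower with piroxicam, carprofen and robenacoxib. OAS1, a synthetase that activates RNA decay on sensing double-stranded RNA, fell with piroxicam to a relative level of 0.05 ± 0.07, against 0.24 ± 0.03 in control cells (SD, n = 3 each; log2 difference -0.19, SE 0.04, adjusted p = 0.00845, both probes called). PSMB9, a subunit of the immunoproteasome, fell with carprofen (-0.16, SE 0.03, adjusted p = 0.00262, 1 of its 2 probes called) and with robenacoxib (-0.21, SE 0.03, adjusted p = 0.00102, both probes called). OAS2, OAS3, EIF2AK2 and PSMB8 were not called on their brightest tested probes; 1 piroxicam array of OAS2 was dropped as an outlier spot, and a second OAS2 probe was called lower with carprofen. The medians over the 6 genes were -0.06, -0.06 and -0.10 for piroxicam, carprofen and robenacoxib. With a slide term 0 of 6 were called with any drug. Scaled to the spiked-in RNA the calls were higher only, with 1, 5 and 3 of 6 for piroxicam, carprofen and robenacoxib. Under that scaling 12792, 23179 and 18599 of all 31996 tested probes were called higher with these drugs.

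Among the interferons, their receptors and regulators, 3 of 21 genes were named and 2 tested. IFNA7, a type I interferon, had a relative level of 0.98 ± 0.18 with carprofen, against 0.54 ± 0.06 in control cells (SD, n = 3 each). It rose with carprofen by 0.43 (SE 0.09, adjusted p = 0.00451), also with a slide term (0.61, adjusted p = 0.00757), though not within the first slide alone (0.61, adjusted p = 0.0663). These values come from 1 of its 2 probes, the other not being well above background throughout any group and so not tested. Interferon alpha genes are near-identical copies of each other, so the signal may come from several of them. SOCS3, a feedback inhibitor of cytokine receptors, was not called with any drug, and IFNG was well above background on 2 of 12 arrays. The other interferon and receptor genes of the list were not named on the array.

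Of 20 cytokine and inflammatory target genes of Toll-like receptors, 17 were named and 10 tested. With piroxicam 1 rose and 1 fell, with carprofen 2 rose and 2 fell, and with robenacoxib 3 rose and 0 fell, with medians over the 10 genes of 0.15, 0.10 and 0.09. Of all tested probes 11.9%, 13.3% and 9.57% were called higher with these drugs and 16.1%, 19.5% and 12.6% lower. With a slide term 1 gene was called higher and 1 lower with piroxicam, 1 higher with carprofen and 0 with robenacoxib, and scaled to the spiked-in RNA 6, 7 and 6 were called higher and 0 lower. CXCL8, the neutrophil-attracting chemokine, was higher than in control with piroxicam (0.49, SE 0.03, adjusted p = 2.62e-05) and with robenacoxib (0.42, SE 0.03, adjusted p = 6.29e-05) and lower with carprofen (-0.12, SE 0.03, adjusted p = 0.0246). All 4 of its probes were called higher with piroxicam and with robenacoxib, but only 1 of the 4 was called lower with carprofen. The carprofen call of CXCL8 ended with a slide term (-0.15, adjusted p = 0.078), within the first slide (-0.15, adjusted p = 0.126) and in the authors' values (-0.01, adjusted p = 0.876), and the difference turned to 0.25 when scaled to the spiked-in RNA. PTGS2, the inducible cyclooxygenase, stood below control with piroxicam (-0.49, SE 0.05) and above it with carprofen (0.47, SE 0.05) and robenacoxib (0.30, SE 0.05); the piroxicam call ended with scaling to the spiked-in RNA (-0.25, adjusted p = 0.0733). With a slide term the robenacoxib calls of PTGS2 (0.49, adjusted p = 0.0561) and CXCL8 (0.42, adjusted p = 0.0596) ended. CSF2, a growth factor for myeloid cells, was lower with carprofen (-0.75, SE 0.21, adjusted p = 0.0243, 1 of its 2 probes called). That call ended with a slide term (-0.90, adjusted p = 0.104) and with scaling to the spiked-in RNA (-0.38, adjusted p = 0.0852). It held under 14 of 27 alternatives, and in 8 of the 12 fits that left out 1 array. IL12A, a subunit of interleukin 12, was higher with carprofen (0.15, adjusted p = 0.0414, called under 7 of 27 alternatives) and robenacoxib (0.24, adjusted p = 0.00813, but 0.13 and adjusted p = 0.661 with a slide term). TNF, IL10, IL18, CCL3, CCL4 and CCL5 were not called with any drug, and IL1A, IL1B and CXCL10 were well above background on 0 of 12 arrays. None of the 7 listed dynamin relatives of Mx was named on the array (0 of 7).

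**Figure D4:**
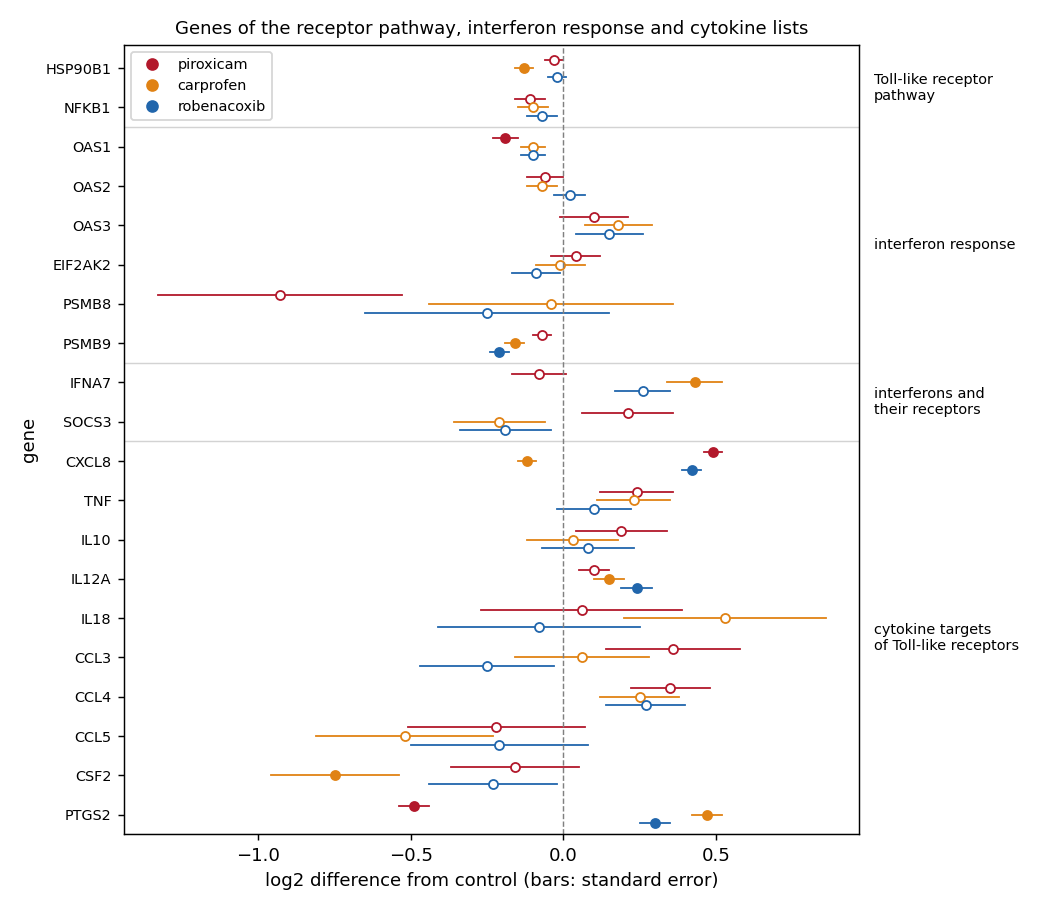
Difference from control on the log2 scale (x axis, bars give the standard error) for the 20 tested genes of the receptor pathway, interferon response, interferon and cytokine lists (y axis, each gene on its brightest tested probe). Filled points have an adjusted p below 0.05 in the limma fit. CXCL8 and PTGS2 carry calls with all 3 drugs, while most interferon response genes lie near zero. Among these, PSMB8 with piroxicam lies furthest from it, at -0.93, and was not called.

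By likeness of pattern over the 12 arrays, among 611 other named and tested genes, the brighter MX1 probe was nearest to BCL2L2 (r = 0.978), CD163 (r = 0.954) and TNNI3 (r = 0.948). Within groups these correlations were 0.506, 0.128 and 0.765. TLR7 was nearest to RING1 (r = 0.908, within groups 0.809), GALC (r = 0.829, within groups 0.0207) and ZNF331 (r = 0.821, within groups 0.615). TLR9 was nearest to SLC45A2 (r = 0.838, within groups 0.863), XYLT1 (r = 0.828, within groups 0.755) and PDE6G (r = 0.765, within groups 0.626). These are descriptions over arrays that share groups, slides and scaling, and the genes were picked as the highest of all candidates.

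Markers of the labelled cell type and of others were checked because Mx and Toll-like receptor transcripts are abundant in leukocytes. Of 13 melanocyte genes 5 were named: MITF, the melanocyte transcription factor, SLC45A2 and RAB27A were well above background on all 12 arrays, KIT on 4 and TYR, the tyrosinase of pigment synthesis, on 0. Of the 3 tested, MITF was called lower with carprofen (-0.13, SE 0.03, adjusted p = 0.00797, 1 of its 2 probes), as were 19.5% of all tested probes, and 0 were called with the other drugs. With a slide term 0 were called, and scaled to the spiked-in RNA 2, 3 and 2 were called higher with piroxicam, carprofen and robenacoxib. The summed linear level of the 5 melanocyte genes, relative to the 75th percentile, was 8.46 to 8.87 with piroxicam, 7.73 to 8.24 with carprofen and 8.11 to 8.57 with robenacoxib, against 8.09 to 8.30 in control cells. All piroxicam arrays thus lay above all controls, as for 21.2% of tested probes. This sum is mostly RAB27A, whose relative level in control cells was 2.90, against -0.54 for MITF. RAB27A itself was not called with piroxicam (0.09, adjusted p = 0.0995). Of 22 leukocyte genes 8 were named and 5 tested, and MS4A1, which marks B cells, was above background on 0 of 12 arrays. Of the 5, 1 was called lower with piroxicam, 2 with carprofen and 1 with robenacoxib, and none higher (0 each). Of all tested probes 16.1%, 19.5% and 12.6% were called lower with these drugs. CD163, a macrophage scavenger receptor, fell by 0.30 on the log2 scale with piroxicam (SE 0.04, adjusted p = 0.000506, 1 of its 2 probes called). The others, not called with piroxicam, were CD86 (-0.07), CD4 (0.28), CD8A (0.02) and FCGR1A (0.08). With carprofen CD86 (-0.23, adjusted p = 0.00968) and FCGR1A (-0.23, adjusted p = 0.0158) were lower, and with robenacoxib FCGR1A was (-0.21, adjusted p = 0.0346). With a slide term the 5 genes had 1 called higher with piroxicam, 1 with carprofen and 0 with robenacoxib. Under that term 0 were called lower with each drug, so all the lower calls above ended. Scaled to the spiked-in RNA their calls were higher only, 1, 2 and 2 with piroxicam, carprofen and robenacoxib. The summed level of the 8 leukocyte genes ranged over 0.397 to 0.420 with piroxicam, 0.403 to 0.420 with carprofen, 0.382 to 0.427 with robenacoxib and 0.393 to 0.465 in control cells. The leukocyte ranges overlapped. The 3 named fibroblast genes had 2 called lower with each drug, beside 16.1%, 19.5% and 12.6% of all tested probes (0, 1 and 0 genes with a slide term). These were COL1A2 and DCN with piroxicam, COL1A1 and COL1A2 with carprofen, and COL1A1 and DCN with robenacoxib. Scaled to the spiked-in RNA 1 was called higher and 0 lower with each drug. The summed level of the 3 fibroblast genes was 68.7 to 72.2 with piroxicam, 64.9 to 68.6 with carprofen and 70.5 to 71.5 with robenacoxib, below the 74.2 to 76.5 of control cells on all arrays. For single tested probes, 26.5% had all piroxicam arrays below all controls and 25% all robenacoxib arrays. That share is not given here for carprofen, with which 19.5% of tested probes were called lower. This sum is mostly COL1A2, whose relative level in control cells was 6.01, against 3.42 for COL1A1 and -5.25 for DCN. The 3 named endothelial genes, of which KDR was above background on 0 arrays, had none called (0 of 2 tested), and 1 called higher with each drug when scaled to the spiked-in RNA. Their summed level was 1.3 to 1.47 with piroxicam, 1.31 to 1.48 with carprofen and 1.23 to 1.42 with robenacoxib, against 1.28 to 1.34 in control cells. It is nearly all VWF, whose relative level in control cells was 0.36, against -5.82 for SELE. The part of other cells in the MX1 and TLR7 differences was not tested, and in such bulk samples fewer cells that make a transcript and less transcript per cell cannot be told apart.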

How the data were processed

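Per the file headers, the deposited scanner files hold one-colour (Cy3) spot intensity read with Feature Extraction 10.7.3.1, with the background already subtracted and no normalization between arrays; flags for background, saturation and outliers are other columns of the same deposited files. The authors' deposited value table holds log2 values by their range, with equal column medians of 7.67. The submitters' processing notes name limma 3.24.15 for it. Its background correction, normalization and centring are unknown here, and it served as an alternative. RNA integrity numbers were above 9.0, per the labels' protocols.

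The analysis used limma 3.58.1 and, for tables, version 1.17.8 of data.table under R 4.3.3, with plots made in Python 3.11.15 and matplotlib 3.10.9. Control spots and outlier-flagged spots were removed, spots of a probe averaged, and log2 signals centred on each array's 75th percentile. After this centring, levels of a probe are comparable between arrays but not with those of another probe. The quoted signals themselves are not scaled between arrays, whose 75th percentile ran from 11.02 (control 3) to 11.28 (carprofen 2) in log2 units. One linear model (lmFit, eBayes, 8 residual degrees of freedom) covered all 12 arrays and 4 groups, with two-sided tests. A listed gene is represented by the brightest of its tested probes. Precision is limited by the number of arrays, and the median SE of a difference was 0.053. The fit was tested on simulated data.

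Names came from the RefSeq genes of assembly UU_Cfam_GSD_1.0 through unversioned accessions and covered 1313 of 43603 probes; the genome build behind the array is not given in the sources used here. All member probes are named, as are up to 4 called genes of each list with the largest change, list genes above background on no array where 5 or fewer, and the 3 genes most like each tested member. The members, lists and rule were chosen with earlier results of these data known; other genes named as not called, and second probes, were chosen after their values were seen. Normexp used the median signals with an offset of 50, in place of the mean signal that had been planned. Alternatives were scaling to 256 spiked-in spots, quantile normalization, normexp, the authors' values, other filters, slide and replicate blocks, fits within a slide or on the compared groups, and leaving out arrays. Slides were read from the array barcodes, and each slide was scanned as a unit.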

Additional observations from a re-analysis of the deposited data

How the results depend on the processing

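Of the member calls, that of carprofen against piroxicam for MX1 kept its direction and its call on the brighter probe under all 27 alternatives. Elsewhere the calls depended on scaling and slide. The counts of called member genes (of 3) were 2 with piroxicam, 1 with carprofen and 2 with robenacoxib against control, 1 in each comparison of drugs and 2 in the overall test. With slide as a block they were 1, 0 and 0 against control, 0 for robenacoxib against carprofen and 1 overall. In those comparisons 1629, 5232, 451, 81 and 11626 of all 31996 tested probes were then called. Scaled to the spiked-in RNA, carprofen had 3 and robenacoxib against carprofen 0, where 23221 and 122 of all tested probes were called. Without control 3 as well the counts against control were 1, 3 and 1. With both the spiked-in scaling and the slide block they were 0, 2 and 0 against control, 0 for robenacoxib against piroxicam, 0 for robenacoxib against carprofen and 1 overall. Normexp with 75th-percentile scaling, normexp with quantile normalization and the authors' values each left 0 with carprofen and 1 with robenacoxib, and the first of these 0 for robenacoxib against carprofen. That setting without robenacoxib 2 left 0 with carprofen, 0 with robenacoxib, 0 for robenacoxib against piroxicam and 0 for robenacoxib against carprofen. Fits on only the groups compared gave 0 with carprofen, 1 with robenacoxib and 0 for robenacoxib against carprofen. Within the shared slide there were 0 for carprofen against control and 0 for robenacoxib against piroxicam. Without control 3 and piroxicam 3 together the counts were 1 with piroxicam, 0 with robenacoxib (MX1 adjusted p = 0.0691, TLR7 adjusted p = 0.0811) and 1 overall. Leaving out each array in turn gave 1 to 2 genes against control with each drug and 1 to 2 overall. The replicate block changed no member call; TLR7 with piroxicam was then 0.61 (adjusted p = 0.0348). Replicate numbers were not taken to pair samples: over 18 same-numbered pairs, deviations from group means correlated at -0.346 to 0.305, with 3 of them over 0.1.

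Several directions turned. MX1 with robenacoxib became 0.20 and 0.18 on its 2 probes when scaled to the spiked-in RNA, 0.12 and 0.12 without control 3 as well, and 0.28 and 0.11 with the slide block as well. The dimmer MX1 probe with carprofen became 0.36, 0.31 and 0.27 under those settings, ranged from -0.09 to 0.04 when each array was left out, and was 0.02 without control 3 and piroxicam 3 together. TLR9 with piroxicam became -0.06 with the slide block; TLR9 with robenacoxib became -0.13 with it, -0.01 with quantile normalization, -0.06 under normexp without robenacoxib 2, and -0.09 to 0.15 over single arrays left out. TLR9 for carprofen against piroxicam became -0.02 with quantile normalization and -0.03 without control 3 and piroxicam 3, and ranged from -0.03 to 0.19 over single arrays. For robenacoxib against piroxicam, TLR9 became 0.04 under normexp and 0.04 with spiked-in scaling and slide block, and TLR7, at 0.00, moved to 0.06 with spiked-in scaling, 0.06 without control 3 as well, 0.02 with the slide block as well, 0.05 under normexp and 0.03 without control 3 and piroxicam 3, with a range of -0.07 to 0.10 over single arrays. OAS1 with piroxicam became 0.05 with spiked-in scaling and 0.00 with the slide block as well. With carprofen, HSP90B1, PSMB9 and CXCL8 became 0.24, 0.22 and 0.25 with spiked-in scaling, 0.16, 0.13 and 0.18 without control 3 as well, and 0.32, 0.28 and 0.24 with the slide block as well; HSP90B1 was also 0.03 under normexp with quantile normalization and 0.03 in the authors' values. PSMB9 with robenacoxib became 0.10, 0.01 and 0.25 under the 3 spiked-in settings. Spiked-in scaling moves all differences from control up together; the cause of the other changes was not tested. The settings that join the spiked-in scaling with another choice, leave out robenacoxib 2 under normexp, or leave out control 3 and piroxicam 3 together were added after seeing the data.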
